A study of Mus musculus with 6 samples.

Results

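Transcripts of 10 genes that mark hippocampal interneurons were examined in mice lacking the cation channel gene Trpc4. They are the genes of the peptides somatostatin (Sst), cortistatin (Cort), neuropeptide Y (Npy), vasoactive intestinal peptide (Vip), cholecystokinin (Cck) and the tachykinins (Tac1), of the calcium-binding proteins parvalbumin (Pvalb) and calretinin (Calb2), of the secreted matrix protein reelin (Reln) and of neuronal nitric oxide synthase (Nos1). Each was read from a probe set whose platform annotation names that gene alone, and where several qualify the one with the highest mean over all arrays is used. All 10 genes were measured, by 1 such probe set each, among 22180 genes tested. The study hybridised total RNA of the hippocampus of male mice at postnatal day 56 to Affymetrix arrays, 1 array per sample. There were 3 samples labelled Trpc4 wild type and 3 labelled Trpc4 knock out, all on a C57BL/6J strain background. The labels do not give the part of the gene that was deleted or whether the deletion is in all cells, and they do not say that each replicate is a separate animal. The p-values rest on the spread among these samples alone, and that spread may be partly technical. The comparison asks how hippocampal transcripts differ when Trpc4 is missing, and every difference below is knockout minus wild type on the log2 scale of the deposited signals.

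Interneurons are the locally projecting inhibitory neurons of the hippocampus, and their classes are told apart by the peptides and calcium-binding proteins they make. Somatostatin cells target the dendrites of pyramidal cells and often contain neuropeptide Y, and a few of them also make cortistatin and nitric oxide synthase. Parvalbumin marks fast-spiking basket and axo-axonic cells, which act at the cell body and the axon start. Cholecystokinin and vasoactive intestinal peptide mark other basket cells and cells that inhibit interneurons, many of which hold calretinin. Several of these genes are not particular to interneurons. Pyramidal cells make Cck, mossy cells of the mouse dentate gyrus make Calb2, and Cajal-Retzius cells make Reln and Calb2. TRPC4 lets calcium and other cations into neurons when Gq-coupled receptors are active.

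Calcium and cyclic AMP signals reach some peptide genes through a short promoter sequence, the cyclic AMP response element TGACGTCA, which the transcription factor CREB binds. The members were therefore searched for it in RefSeq promoters of GRCm38.p6 (250 bases before to 50 after each gene start), where 9 of the 10 genes had an entry and Pvalb had a second one, 10 windows in all. Calb2 had no entry. The whole element, which reads the same on both strands, was present in 1 of the 10 windows, that of Sst, and in 1.79% of all 32851 windows of this length. The shorter core of the element, CGTCA or TGACG on the other strand, was present in 6 of the 10 and in 20.8% of all windows, those with the whole element included. All 6 genes with a core are set against those without one later on. Of these, the 5 with a match that starts within 100 bases before the gene start are printed here. They are given on the gene's own strand with up to 30 bases on each side, and capitals mark the match.
Sst (chr16:23890855-23890922, minus strand): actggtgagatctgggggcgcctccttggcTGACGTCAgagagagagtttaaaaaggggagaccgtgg
Vip (chr10:5639109-5639173, plus strand): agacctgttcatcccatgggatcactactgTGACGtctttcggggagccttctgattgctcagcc
Cck (chr9:121495707-121495771, minus strand): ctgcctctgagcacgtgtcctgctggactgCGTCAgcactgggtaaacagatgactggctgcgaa
Tac1 (chr6:7554988-7555052, plus strand): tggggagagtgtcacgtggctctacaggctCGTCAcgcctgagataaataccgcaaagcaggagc
Cort (chr4:149126764-149126811, minus strand): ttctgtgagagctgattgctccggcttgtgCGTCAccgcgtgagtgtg
These stretches show the whole element, which begins 48 bases before the Sst start, and the core alone in the other genes. Nos1 had a core further away, 130 bases before its start, and Tac1 a further one. A match in these letters is not evidence of a bound site.

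The Trpc4 signal itself was lower in all 3 knockout samples, at 8.06, 8.23 and 8.06 in wild type and 7.39, 7.55 and 7.31 in knockout. The difference was -0.70 ± 0.09 (standard error; limma, unadjusted p 8.87e-05, adjusted 0.738), and a probe set outside the deleted part would not check the genotype. The array medians lay between 4.73 and 4.75, the arrays correlated with each other at a Pearson's r of 0.985 to 0.988 across probe sets, which are not independent replicates, and no 2 columns were identical.

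None of the 10 genes passed the test between genotypes. By limma with Benjamini-Hochberg adjustment over all 22180 genes, their adjusted p-values lay between 0.892 and 0.974, and 0 genes in the whole table passed 0.05 (0% of those tested). At an unadjusted limma p under 0.05 there were also 0 members, where 5.75% of all genes lie. No member had knockout samples that all lay on one side of the wild-type samples, where 10.9% of all genes did. The mean was lower in knockout for 6 of the 10 members, against 45.1% of all genes. The median difference of the members was -0.06 and that of all genes 0.01, and the members' differences ran from -0.19 (Sst) to 0.19 (Tac1). The RNA came from hippocampal tissue, a mix of cell types, so fewer cells of a type and less RNA per cell cannot be told apart in any of these values. The median standard error of a member's difference was 0.10, the same as that of all genes (0.10).

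**Figure D1:**
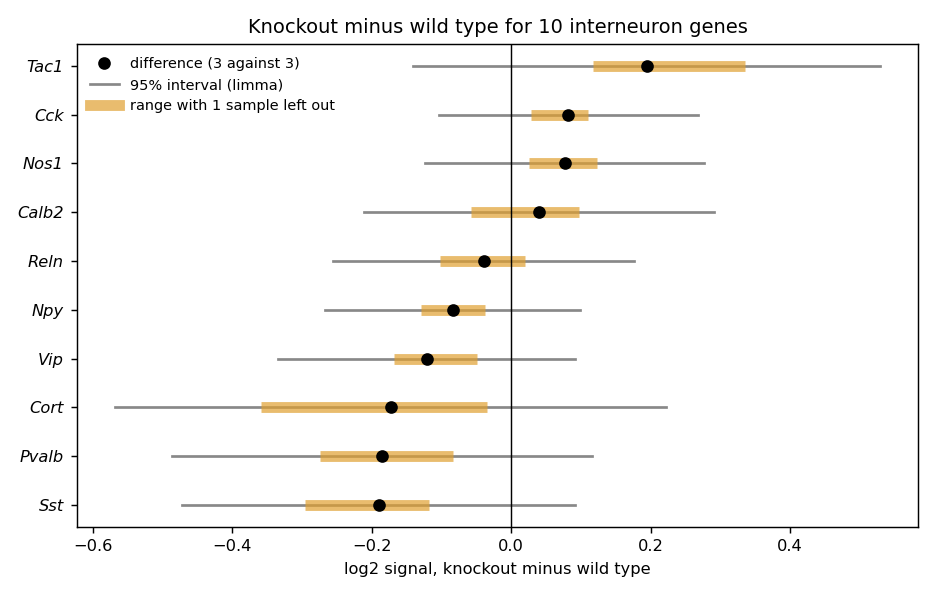
Knockout minus wild type in log2 signal (x axis) for the 10 genes (y axis, ordered by difference): points are the difference of 3 against 3 samples, thin lines the 95% interval from limma, and thick bars the range when 1 sample is left out. Every thin line crosses 0, and the thick bars of Calb2 and Reln do too.

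The genes of the somatostatin class come first. Sst, whose peptide inhibits release and firing through Gi-coupled receptors, had log2 signals of 10.94, 11.01 and 10.65 in wild-type replicates 1 to 3. In knockout replicates 1 to 3 they were 10.56, 10.84 and 10.63. Wild-type replicate 3 lay among the knockout samples and knockout replicate 2 among the wild-type samples, so the groups overlapped, although all 3 knockout values were below the wild-type mean. The means were 10.87 ± 0.19 and 10.68 ± 0.15 (SD, n = 3 each). They differed by -0.19, with a standard error of 0.12 and a 95% interval of -0.47 to 0.09. As a share of wild type, the knockout signal was 87.7%, with an interval of 72.1% to 107%. Without wild-type replicate 3 the Sst difference was -0.30 and its groups no longer overlapped (unadjusted limma p 0.0343, a limit that 4.90% of all genes passed in that setting; adjusted p 0.856 or higher with any sample left out), and without wild-type replicate 2 it was -0.12.

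Cort encodes cortistatin, a relative of somatostatin that acts on the same receptors. Its signals were 4.53, 4.56 and 4.82 in the wild-type samples and 4.37, 4.84 and 4.19 in the knockout samples. Knockout replicate 2 was the highest of all 6 samples while the other knockout samples were the lowest. The difference was -0.17, with an interval of -0.57 to 0.22, the widest of the 10. Knockout replicate 2 set much of this value, since without it the difference was -0.36 (unadjusted limma p 0.0233, where 5.31% of all genes passed) and without knockout replicate 3 it was -0.03. The mean signal of Cort lay 0.17 below 4.72, the array-wide median (taken over all probe sets), and how much of it is above background cannot be read from the deposited values.

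Npy, the peptide of many dendrite-targeting interneurons, was the tightest of the 10 genes in wild type. Its signals were 8.44, 8.50 and 8.49 in wild type and 8.39, 8.48 and 8.30 in knockout. The wild-type samples spanned 0.06 and the knockout samples 0.18, and only knockout replicate 2 reached the wild-type range. The difference was -0.08 with an interval of -0.27 to 0.10, which is 94.3% of the wild-type signal (83.1% to 107%). It was -0.13 without knockout replicate 2 and -0.04 without knockout replicate 3.

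Nos1 makes nitric oxide, a diffusible messenger, in neurogliaform cells, in some other interneurons and in projecting somatostatin cells. The Nos1 signals were 6.96, 6.88 and 6.76 in wild type and 6.89, 7.04 and 6.91 in knockout. All 3 knockout samples lay above the wild-type mean, but wild-type replicate 1 was above 2 of them. The difference was 0.08 with an interval of -0.12 to 0.28. It was 0.02 without wild-type replicate 3 and 0.12 without wild-type replicate 1. Sst, Cort and Npy thus had the lower mean in knockout and Nos1 the higher one, each with an interval that included 0.

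**Figure D2:**
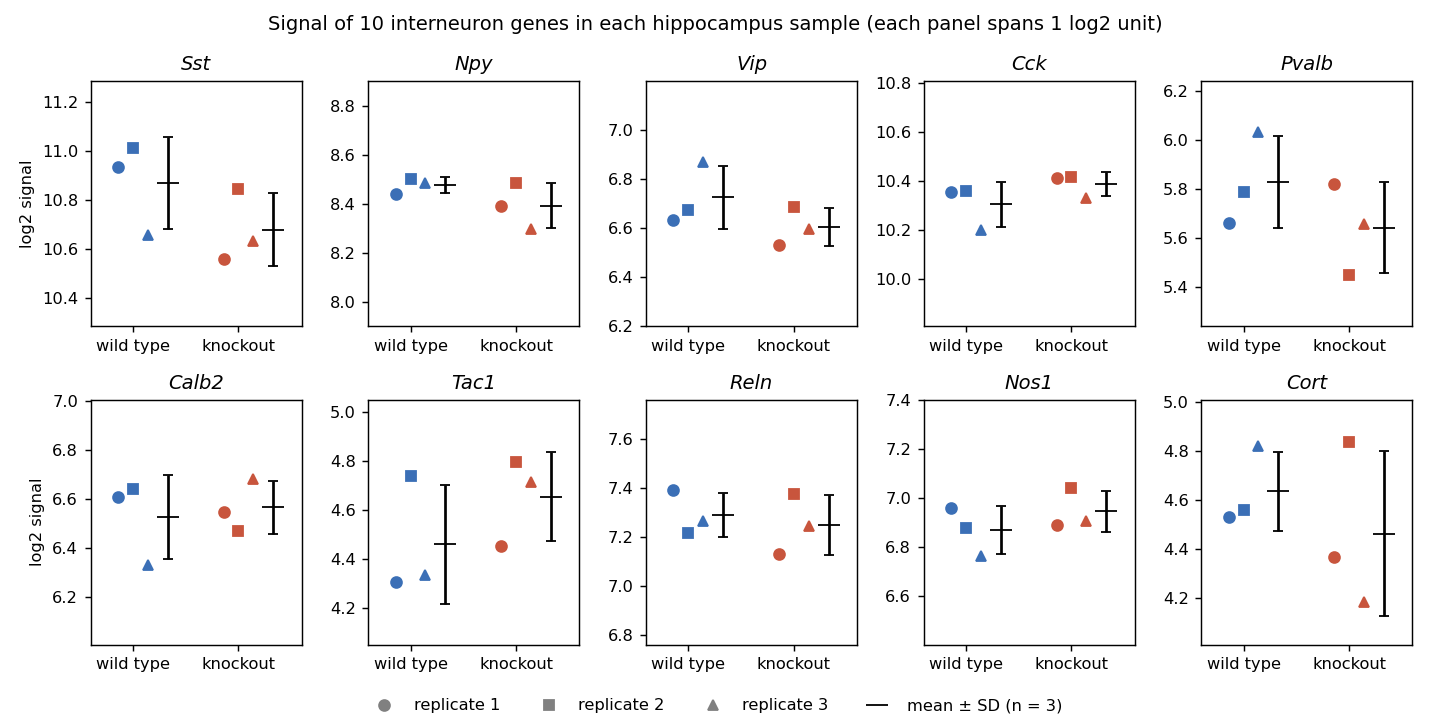
Log2 signal (y axis; every panel spans 1 log2 unit) of each of the 10 genes in the 3 wild-type (blue) and 3 knockout (red) samples, with marker shape giving the replicate number and black bars the mean ± SD of a group. In each panel the red and the blue points overlap, and Npy has the narrowest wild-type spread.

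Among the genes of cells that inhibit other interneurons or act as cholecystokinin basket cells, Vip had the lower mean and Cck the higher one. Vip encodes a peptide that raises cyclic AMP in its target cells. Its signals were 6.63, 6.67 and 6.87 in wild type and 6.53, 6.69 and 6.59 in knockout. Wild-type replicate 3 stood above the other samples, and knockout replicate 2 lay just above the remaining wild-type samples. The difference was -0.12 with an interval of -0.33 to 0.09, and -0.05 without wild-type replicate 3.

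Cck, the peptide gene that pyramidal cells also transcribe, had signals of 10.36, 10.36 and 10.20 in wild type and 10.41, 10.42 and 10.33 in knockout. All 3 knockout samples lay above the wild-type mean, and knockout replicate 3 below 2 of the wild-type samples. The difference was 0.08 with an interval of -0.10 to 0.27. Wild-type replicate 3 was the lowest of the 6 samples, and without it the difference was 0.03. The knockout signal was 106% of wild type, with an interval of 93.0% to 120%.

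Calb2, the calretinin gene, had signals of 6.61, 6.64 and 6.33 in wild type and 6.55, 6.47 and 6.68 in knockout. Wild-type replicate 3 was again the lowest sample and knockout replicate 3 the highest. The difference of 0.04, with an interval of -0.21 to 0.29, had no settled sign: it was -0.06 without wild-type replicate 3 and -0.02 without knockout replicate 3.

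Tac1, the gene of substance P and neurokinin A, had the largest positive difference of the 10 and one of the widest intervals. Its signals were 4.30, 4.74 and 4.33 in wild type and 4.45, 4.80 and 4.71 in knockout. Wild-type replicate 2 lay with the 2 higher knockout samples, while the other wild-type samples were the lowest of the 6. The difference was 0.19 with an interval of -0.14 to 0.53. Without wild-type replicate 2 it was 0.33 and the groups did not overlap (unadjusted limma p 0.0305, where 5.69% of all genes passed), and without wild-type replicate 1 it was 0.12. Like Cort, Tac1 had a mean signal (4.56) under the array-wide median.

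Pvalb encodes the calcium buffer of fast-spiking cells. Its signals were 5.66, 5.79 and 6.03 in wild type and 5.82, 5.45 and 5.66 in knockout. Each group spanned 0.37, more than the distance between the means. Knockout minus wild type was -0.19, with a standard error of 0.13 and an interval of -0.49 to 0.12, and the knockout signal was 87.9% of wild type (71.3% to 108%). It was -0.27 without knockout replicate 1 and -0.08 without wild-type replicate 3.

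Reln encodes the secreted protein that positions neurons in development and that interneurons and Cajal-Retzius cells release in the adult. The Reln signals were 7.39, 7.21 and 7.26 in wild type and 7.13, 7.38 and 7.24 in knockout, so both groups ran over the same range. The difference was -0.04 with an interval of -0.26 to 0.18, and its sign turned without wild-type replicate 1 (0.01) or knockout replicate 1 (0.02). For single members the permutation p (exact, two-sided) lay between 0.2 (Sst and Npy) and 0.8 (Calb2), where 3 against 3 samples cannot give less than 0.1.

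Knockout replicate 2 stood apart from the other knockout samples over several of these genes. It was the highest of the 6 samples for 4 of the 10 genes and lay above the gene's mean for 8, as wild-type replicate 2 did for 8. Knockout replicates 1 and 3 lay above the gene's mean for 3 and 2. Without knockout replicate 2 the groups of Sst, Npy, Vip and Cort no longer overlapped, 4 of 10, where 20.6% of all genes did not overlap with that sample left out. Such members were Npy and Nos1 without wild-type replicate 1 (23.7% of all genes), Tac1 without wild-type replicate 2 (21.2%), Sst without wild-type replicate 3 (19.3%), Pvalb without knockout replicate 1 (20.4%) and Cck without knockout replicate 3 (21.8%). Knockout replicate 2 was singled out by its level in these same genes, so the count without it is a description only.

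The genes with and without the core sequence can be set side by side. Of the 6 members with one, Sst, Vip and Cort had the lower mean in knockout (-0.19, -0.12 and -0.17) and Cck, Tac1 and Nos1 the higher (0.08, 0.19 and 0.08). The 3 without one in their windows, Npy, Pvalb and Reln, were all lower in the mean (-0.08, -0.19 and -0.04). The intervals of all 9 differences included 0.

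Each member was also matched with the gene most like it over the 6 arrays, among the other members and the measured genes of the lists of other interneuron markers and of GABA synthesis and interneuron lineage factors. As the best of 55 candidates over 6 arrays, these values are high by selection and are given as a description only. Cort went with Chodl (Pearson's r 0.92, 6 arrays), a marker of the projecting somatostatin cells, and Npy with the nociceptin precursor gene Pnoc (0.94). Sst went with Crhbp (0.86), the gene of a binding protein for corticotropin-releasing hormone. Pvalb went with Lhx6 (0.91), Vip with Satb1 (0.91), Calb2 with Sox6 (0.89), Tac1 with Sp9 (0.91) and Nos1 with Adarb2 (0.92), all but Adarb2 transcription factor genes. Cck went with Nos1 (0.80) and Reln with the calbindin gene Calb1 (0.88). Several of these pairs join genes of different interneuron classes.

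The list of receptors and downstream proteins of the 10 genes' products held 26 genes, all of them measured, 19 with the higher and 7 with the lower mean in knockout, with a median of 0.04 beside 0.01 for all genes. Of these, 0 passed over all genes and 1 had an unadjusted limma p under 0.05, where 5.75% of all genes lie. That gene was Lrp8, which encodes a reelin receptor of synapses, also called ApoER2. Its signals were 7.58, 7.53 and 7.49 in wild type and 7.83, 7.82 and 7.83 in knockout. All 3 knockout samples lay above all wild-type samples, and the SD of the knockout values was 0.0059. Lrp8 differed by 0.29, with a standard error of 0.07 and an interval of 0.13 to 0.45 (limma, unadjusted p 0.00359, adjusted p 0.849 over all genes; exact two-sided permutation p 0.1, the smallest possible). It stayed between 0.27 and 0.31 with single samples left out. Groups that do not overlap upward were found for 6.41% of all genes, and 1 of these 26. The other reelin pathway genes of the list, Vldlr and Dab1, differed by 0.04 and 0.06, and were named after their values were seen. The sign for Vldlr turned without wild-type replicate 3 (-0.02).

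The 5 somatostatin receptor genes, which bind somatostatin and cortistatin, lay between -0.0036 and 0.33. Sstr1 differed by 0.33 with an interval of -0.05 to 0.71, and Sstr2 by 0.15 with an interval of -0.05 to 0.36, and by 0.10 without wild-type replicate 3. For Sstr1 the samples were 4.998, 5.52 and 5.10 in wild type and 5.40, 5.79 and 5.42 in knockout. Wild-type replicate 2 lay within the knockout range, and without it the difference was 0.49, while without knockout replicate 2 it was 0.20. All 4 measured neuropeptide Y receptor genes had the higher mean, by 0.03 to 0.07. The 3 receptor genes of vasoactive intestinal peptide and its relative PACAP lay within -0.0011 and 0.03. The 2 cholecystokinin receptor genes lay at -0.09 and 0.15, and the 3 tachykinin receptor genes between -0.20 and 0.04. The 6 genes of nitric oxide signalling, guanylyl cyclase subunits, cyclic GMP kinases and the synthase's adaptor, lay between -0.13 and 0.07. The cholecystokinin receptor gene at 0.15 had a mean signal under the array-wide median and an interval of -0.35 to 0.65. The tachykinin receptor gene at 0.04 and the nitric oxide gene at -0.13 also had means under that median.

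**Figure D3:**
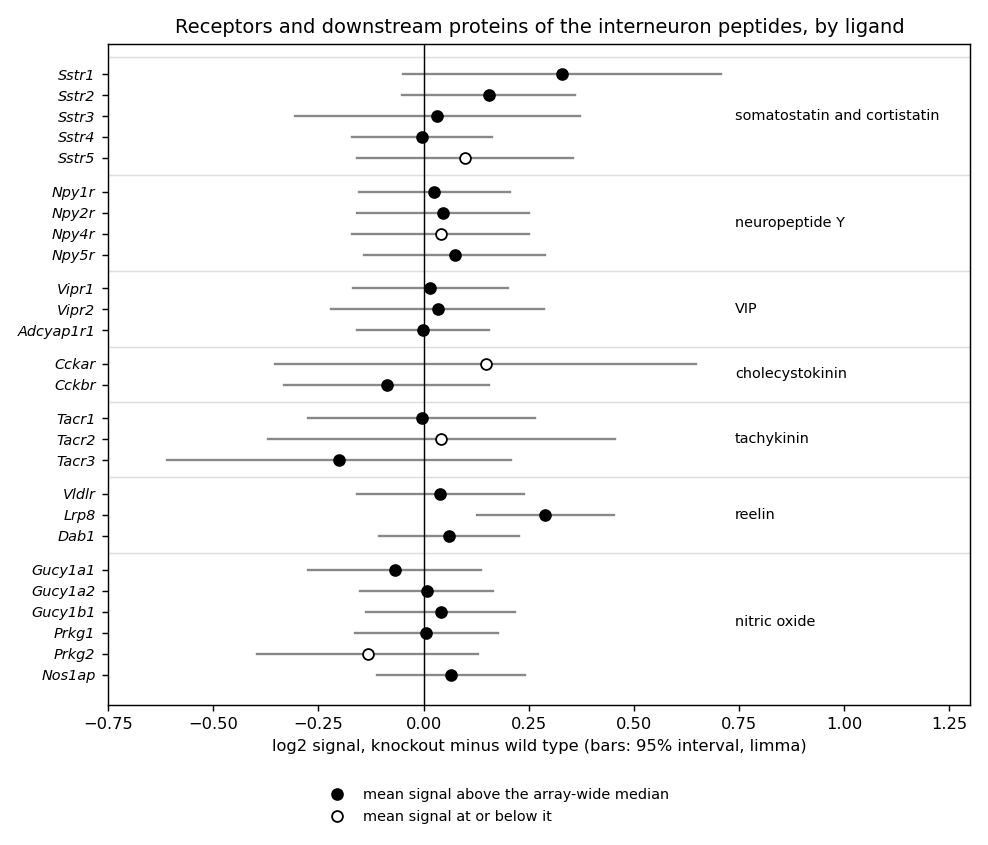
Knockout minus wild type in log2 signal (x axis) with 95% limma intervals (bars) for the 26 receptor and downstream genes, grouped by ligand; open circles mark genes whose mean signal lies at or below the array-wide median. Lrp8 at 0.29 is the gene whose interval lies apart from 0, and Sstr1 at 0.33 has a wider interval that crosses it.

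Other markers of interneurons were lower in the mean for 18 of 26 measured genes (45.1% of all genes), with a median of -0.02. Of them, 0 passed at either threshold (5.75% of all genes at the unadjusted one). Pnoc differed by -0.18 ± 0.09 (standard error), Chodl, whose mean lay under the array-wide median, by -0.20 ± 0.11 and the neuregulin receptor gene Erbb4 by -0.11 ± 0.07. Pnoc and Chodl were both highest among the knockout samples in replicate 2, as Cort, Npy and Sst were, and without that sample they differed by -0.26 and -0.29. Chodl differed by -0.12 without wild-type replicate 3. Genes of GABA synthesis and of the interneuron lineage were split, 10 of 20 higher and 10 lower, with a median of 0.02. Dlx transcription factors specify GABA neurons in the embryo, and their measured genes went both ways. Dlx2 differed by -0.21 ± 0.09 (unadjusted limma p 0.0481, adjusted 0.853). It was the only 1 of the 20 genes at an unadjusted p under 0.05, where 5.75% of all genes lie. Dlx5 differed by -0.29 ± 0.13, and by -0.14 without wild-type replicate 2. All 3 of its knockout samples lay below the wild-type samples. That held for 2 of these 20 genes, where 10.9% of all genes do not overlap in either direction. The non-coding Dlx6os1 also differed by -0.29 ± 0.13, and by -0.16 without wild-type replicate 1. Dlx6, named after its values were seen, had the higher mean, by 0.13 (unadjusted limma p 0.413), and -0.0018 without wild-type replicate 3. These 4 were the Dlx entries of the list that were measured.

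Genes that process peptides or form dense-core vesicles were higher in the mean for 12 of 16 (45.1% of all genes were lower), with a median of 0.05. Of the 16, 0 had an unadjusted limma p under 0.05, where 5.75% of all genes lie. Vgf, a granin-like precursor, differed by 0.22 ± 0.10, the peptidase gene Mme by -0.15 ± 0.11 and the vesicle priming gene Cadps2 by 0.11 ± 0.09. Mme differed by -0.07 without knockout replicate 1 and by -0.24 without wild-type replicate 2. Cadps2 differed by 0.19 without knockout replicate 1 and by 0.07 without knockout replicate 3. Other EF-hand proteins, relatives of parvalbumin and calretinin by their calcium-binding fold, were higher for 14 of 22, with a median of 0.04. Cabp7 differed by 0.22 ± 0.09 (unadjusted limma p 0.0349, adjusted 0.853) and was higher in all 3 knockout samples. It was the only 1 of the 22 at an unadjusted p under 0.05 (5.75% of all genes). It was also the only 1 whose knockout samples all lay above the wild-type samples (6.41% of all genes). Rcvrn and Ocm differed by 0.13 ± 0.10 and 0.19 ± 0.15, both of them dim genes (mean under the array-wide median). Rcvrn differed by 0.07 without wild-type replicate 3 and 0.19 without wild-type replicate 1, and Ocm by 0.10 without knockout replicate 2 and 0.34 without knockout replicate 1.

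Activity-induced genes, which neurons switch on with firing, were lower in the mean for 11 of 21 and higher for 10. Their median was -7.7e-05, the differences ran from -0.34 to 0.23, and 0 had an unadjusted limma p under 0.05 (5.75% of all genes). Arc differed by -0.26 ± 0.12, Ier2, a dim gene, by -0.29 ± 0.13 and Nr4a1 by -0.34 ± 0.19. Knockout replicate 2 was the lowest sample for all 3, the sample in which Cort was highest, and without it they differed by -0.15, -0.17 and -0.15. The mean level of this list was 6.60 in knockout replicate 2 and 6.82 to 6.98 in the other knockout samples, against 6.77 to 6.87 in wild type. Its part in the members' values was not tested.

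Markers of the other cells that make some of the members were read without the members. Of 8 Cajal-Retzius markers, 4 were higher and 4 lower (median -0.02), with mean levels of 5.02 to 5.18 in wild type and 5.04 to 5.08 in knockout. Ebf2 differed by -0.28 ± 0.11 (unadjusted limma p 0.0354, adjusted 0.853), Lhx1 by 0.15 ± 0.08 and Ndnf by -0.15 ± 0.12. Of the 8, only Ebf2 had an unadjusted p under 0.05, where 5.75% of all genes lie. Ebf2 and Lhx1 were dim genes, and Ndnf is also on the list of other interneuron markers. Without wild-type replicate 3, Ebf2 differed by -0.17, and without knockout replicate 1, Ndnf by -0.03. Mossy cell markers were higher for 5 of 8 (median 0.03), with levels of 5.79 to 5.86 in wild type and 5.76 to 5.85 in knockout. Pyramidal cell markers, whose cells make Cck, were higher for 10 of 15 (median 0.06; levels 8.27 to 8.37 and 8.35 to 8.37), and dentate granule cell markers for 11 of 12 (median 0.11; levels 7.06 to 7.36 and 7.22 to 7.42). Of the pyramidal markers, 4 of 15 had an unadjusted limma p under 0.05 (5.75% of all genes) and 0 an adjusted one. The groups did not overlap for 7 of the 15 (10.9% of all genes), of which 5 were higher and 2 lower. The differences ran from -0.36 (Iyd, a CA3 marker) to 0.26 (Mpped1, a CA1 marker), and Wfs1, another CA1 marker, differed by -0.25. Of the dentate markers, 2 of 12 had an unadjusted limma p under 0.05 (5.75% of all genes) and 0 an adjusted one. The pyramidal and dentate lists were chosen with earlier results of these data known, so these counts are a description only. Both lists lay above the array-wide median in every sample, but so did the lists of neocortex (6.91 to 7.05) and of striatum and thalamus (5.79 to 5.87), so these levels do not set the hippocampus apart from nearby tissue. The part of these cell types in the members' values was not tested.

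Oligodendrocyte and myelin markers had the median farthest from 0 among the 17 lists other than the members. All 17 measured genes had the lower mean in knockout (45.1% of all genes), with a median of -0.44. An unadjusted limma p under 0.05 was found for 13 of them (5.75% of all genes) and an adjusted one for 0. The groups did not overlap for 12, all of them lower (10.9% of all genes in either direction). The list was chosen with earlier results of these data known, so these counts are a description only. Tspan2, a tetraspanin of these cells, differed by -0.62 ± 0.15, Aspa, the enzyme that cleaves N-acetylaspartate, by -0.68 ± 0.18 and the myelin enzyme gene Cnp by -0.44 ± 0.14. The mean level of the list was 8.01 to 8.07 in wild type and 7.65, 7.35 and 7.94 in knockout replicates 1 to 3. The members' mean level in the same knockout samples was 7.11, 7.24 and 7.12, against 7.18 to 7.24 in wild type. The sample with the lowest myelin level thus had the highest members' level of the knockout group, and the part of myelin content in the members' values was not tested. Astrocyte (5 of 10 lower) and microglia markers (6 of 10 lower) had medians of -0.0039 and -0.01. Endothelial markers were lower for 8 of 10 (median -0.09) and choroid plexus markers for 8 of 9 (median -0.16). Markers of tissue beside the hippocampus were lower for 4 of 7 striatum and thalamus genes (median -0.0051) and 5 of 10 neocortex genes (median 0.0070).

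**Figure D4:**
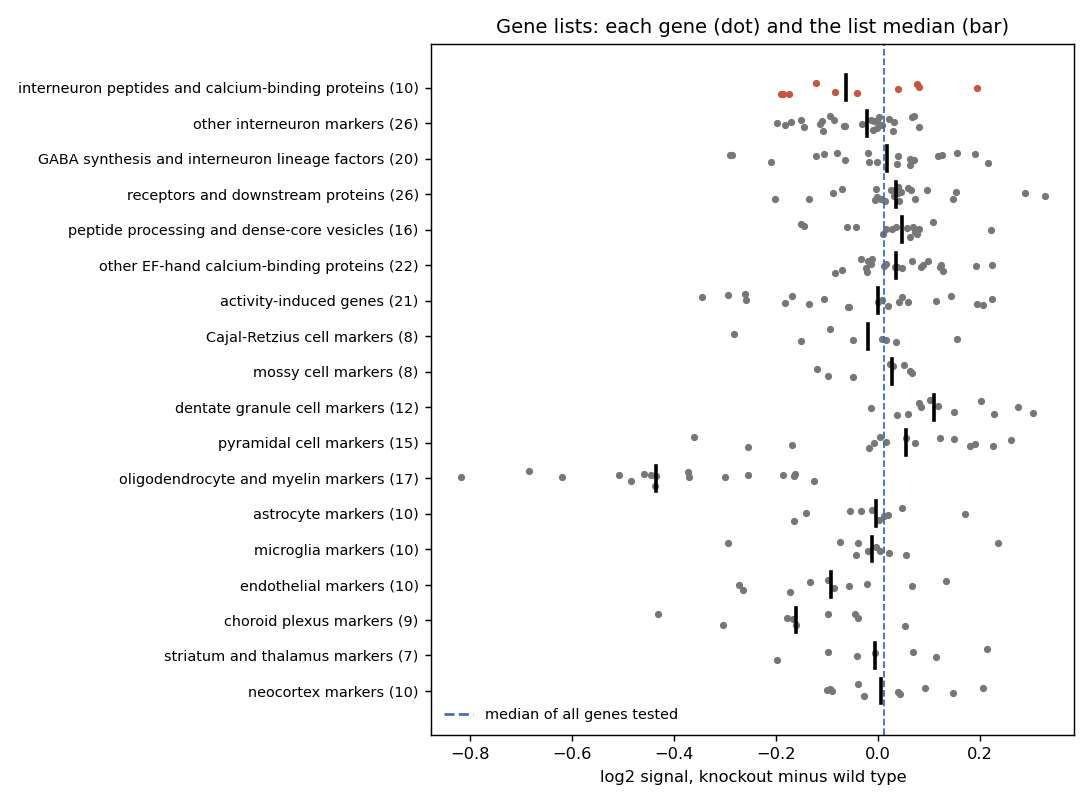
Knockout minus wild type in log2 signal (x axis) for each gene (dots, red for the 10 genes) of every list (y axis, measured genes in brackets), with the list median as a black bar and the median of all genes tested, 0.01, as a dashed line. The 10 interneuron genes lie between -0.19 and 0.19 around a median of -0.06, while all 17 myelin genes lie below 0.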

How the data were processed

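RNA was extracted with Trizol and labelled for WT arrays per the labels' protocols. The authors deposited 1 table of log2 values for 41345 probe sets on 6 arrays, produced by RMA with the Affymetrix Power Tools software (per the submitters' processing notes); their versions and the genome build: not given in the sources used here. RMA normalizes the arrays together, so a shift shared by most genes would not show, and no background signal was available. The number of arrays limits the precision. Of the probe sets 23521 named 1 gene (22180 genes), 1814 several and 16010 none in the platform annotation, which can be old. Gene numbers of all 10 members were found in RefSeq GRCm38.p6 with the same symbols.

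The genotypes were compared with lmFit and eBayes of limma 3.58.1 (R 4.3.3) on genotype alone, over all genes, with Benjamini-Hochberg adjustment at 0.05. Intervals are at 95%. Lists are described by counts and medians, without a set test, and members are left out of the other lists. Some genes, such as Ndnf and Calb1, are on several lists, so the lists are not separate readings. Named genes are all members, up to 3 genes per list with the smallest unadjusted p, Trpc4 and the closest gene of each member; Vldlr, Dab1 and Dlx6 were added after their values were seen. The members and lists were chosen with earlier results of these data known. The receptor list also held 3 older symbols of measured genes. The fit was tested on simulated data, with changes larger than any member's difference. That test does not show whether changes of the members' size would be found. The alternatives tried were leaving out each sample, the replicate number as a block, median centring, quantile normalization, weights per array, a trended robust variance, dropping dim genes, averaging probe sets and testing all probe sets. Plots were made in Python 3.11.15 (matplotlib 3.10.9).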

Additional observations from a re-analysis of the deposited data

How the results depend on the processing

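Of the 78 member differences recomputed under the 8 settings other than leaving out a sample, 78 kept their direction and stayed above the adjusted threshold (lowest adjusted limma p 0.787, lowest unadjusted 0.0615), and so did 56 of the 60 with a sample left out. Of these settings, only quantile normalization, median centring and weights per array could change a member's difference. The others leave the difference as it was by design and bear on the p-values alone, so kept directions there say nothing. Cort and Tac1 had no value with only genes above the array-wide median. Without single samples, Calb2 ranged from -0.058 (without wild-type replicate 3) to 0.10, also turning without knockout replicate 3 (-0.02), and Reln from -0.10 to 0.020 (without knockout replicate 1), also turning without wild-type replicate 1 (0.01). Outside the members, Dlx6 ranged from -0.0018 to 0.23 and Vldlr from -0.022 to 0.10, both lowest without wild-type replicate 3. Members past the adjusted threshold stayed at 0, those at an unadjusted p under 0.05 were 0 to 1 (Sst, Tac1 or Cort), those with groups that do not overlap 1 to 4, and those lower in knockout 5 to 7. The replicate block (limma) gave 0 members past the adjusted threshold and 0 at an unadjusted p under 0.05, as without it. With the block, the receptor genes Sstr1 and Lrp8 had unadjusted limma p-values of 0.00751 and 0.0116 (adjusted 0.809 for both). The contrast between their intervals thus depended on the model. Over all genes, same-numbered samples did not deviate together: the correlations of their deviations from the group means were 0.07, 0.03 and -0.0038. A correlation over all genes cannot show a pairing that touches few of them. The labels do not call the numbers pairs, and the main fit does not take them as pairs. Trpc4 passed the adjusted threshold with trend and robust variance (0.0378). The array number limits all of these values, and Cort and Tac1 lie at a signal where background was not measured.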
